A study of Homo sapiens with 15 samples.

Results

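Cathepsin K (CTSK), cathepsin L (CTSL), cystatin F (CST7) and heparanase (HPSE) each have 1 well on a plate of quantitative PCR assays for genes related to metastasis, and these 4 wells were taken by symbol from the 84 target genes. The plate was run on total RNA from MDA-MB-231 cells and from MDA-MB-468 cells, both established human lines of triple-negative breast cancer, either unstimulated or exposed for 24 h, according to the labels, to the conditioned medium (CM) of monocyte-derived macrophages (MDM). A legend of the study gives a shorter exposure. The macrophages came from blood monocytes of human donors and had first been primed with supernatant of breast cancer cells. Of the 15 samples that the labels list, the MDA-MB-231 cells account for 3 exposed and 4 unstimulated ones and the MDA-MB-468 cells for 4 of each kind. Nothing in these sources says that the samples of a group were separate cultures, so the spread between them may be technical. The question of the array was which metastasis-related genes of the cancer cells change when the cells meet the products of macrophages that have seen cancer cells.

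CTSK and CTSL are cysteine proteases of the lysosome that can also be secreted. CTSK is a strong collagenase, best known from the osteoclast. CTSL is a broad endopeptidase that many transformed cells release as a proenzyme, and it also cleaves the heparanase proenzyme into the active form. CST7 encodes cystatin F, an inhibitor of lysosomal cysteine proteases that is made mainly by immune cells. HPSE encodes the endoglycosidase that cuts the heparan sulfate chains of basement membrane and cell surface proteoglycans and so frees the growth factors bound to them. CTSK, CTSL and CST7 are all expressed by macrophages.

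The values are fold changes of a CM sample over an unstimulated one, available as 3 comparisons per line, which carry the control numbers 2, 3 and 4. They are given relative to a housekeeping gene of the same comparison, ACTB for the MDA-MB-231 cells and RPLP0 for the MDA-MB-468 cells, and the error given is the SD or the range over the 3 comparisons. A further unnumbered column per line was the geometric mean of the 3 comparisons and was not counted again. The same number of CM sample heads the comparisons with controls 3 and 4, so that these may share a sample. The headers of the MDA-MB-468 comparisons name an MDA-MB-231 control, while the study's table describes them as a comparison within MDA-MB-468. CDKN2A, which MDA-MB-231 is known to have lost, had fold changes of 0.986, 1.07 and 0.496 in these 3 comparisons, and CDH1 (E-cadherin), which MDA-MB-231 is known to lack, had 1.70, 2.26 and 0.696. RB1, which MDA-MB-468 is known to have lost, had 0.0859, 0.0744 and 0.0474 there, against 0.714 to 0.917 in the comparisons of MDA-MB-231. SMAD4, also known to be lost in MDA-MB-468, had 0.0722 to 0.309 there but likewise 0.0703 to 0.222 in the comparisons of MDA-MB-231. These genes do not settle which control was the denominator, and the MDA-MB-468 values are described here as the study's table names them. The level of each transcript in a sample is not known from ratios, and a change in all cells cannot be told apart from a change in some of them.

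None of the 4 genes was raised or lowered by the rule of a geometric mean fold change over 2, or under 0.5, with all 3 comparisons on the same side of 1. Of the 84 target genes, 31% were raised and 3.57% lowered by this rule in MDA-MB-231, and 27.4% were raised and 3.57% lowered in MDA-MB-468. In MDA-MB-231 both cathepsins lay above 1 in each comparison, while cystatin F and heparanase lay on either side of 1. In MDA-MB-468 all 4 genes had a geometric mean below 1, and for each of them the comparison with control 4 lay far under the others.

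**Figure D1:**
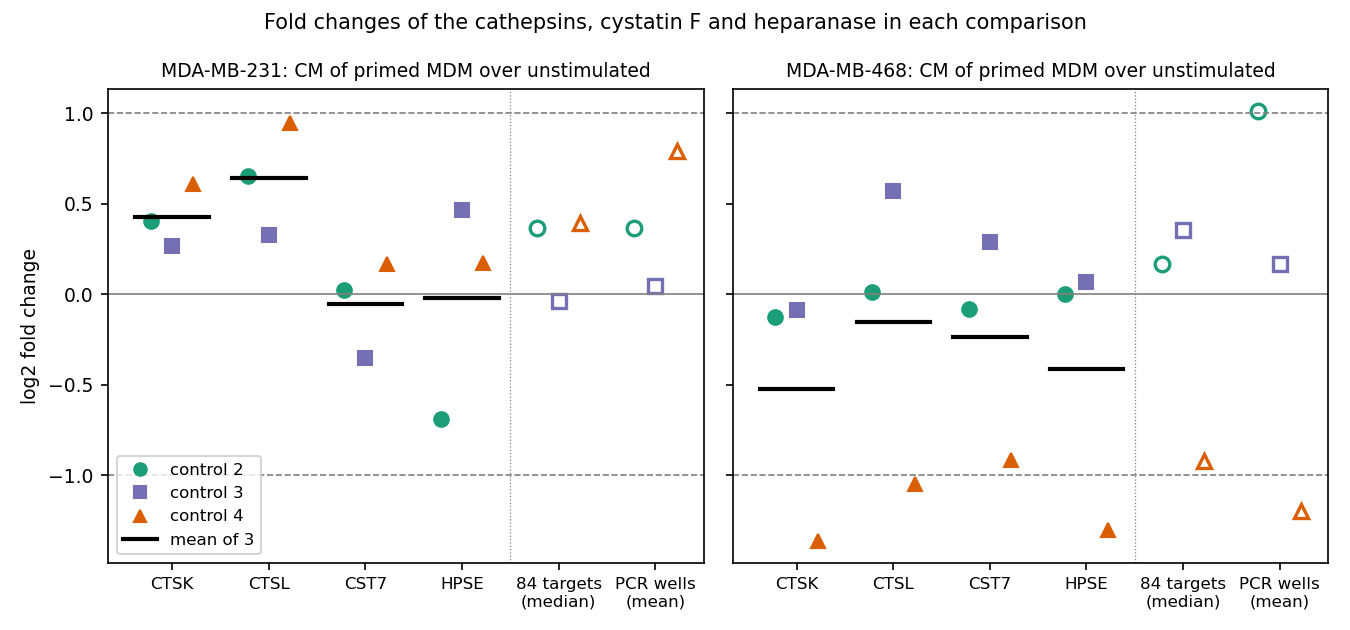
Log2 fold change of CTSK, CTSL, CST7 and HPSE (filled symbols) in each of the 3 comparisons of CM with unstimulated cells, by line, with the mean of the 3 as a black bar. Open symbols give the median of the 84 target genes and the mean of the 3 positive PCR control wells of the same comparison, and dashed lines mark the 2-fold threshold. In MDA-MB-468 the comparison with control 4 is the lowest for all 4 genes, for the target median (-0.92) and for the PCR control wells (-1.20).

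In MDA-MB-231, CTSL had fold changes of 1.57 (control 2), 1.25 (control 3) and 1.92 (control 4). All 3 lay above 1 and none reached 2. The geometric mean was 1.56, a mean log2 fold change of 0.64 ± 0.31 (SD, n = 3), which ranked 29 among the 84 target genes. In MDA-MB-468 the fold changes of CTSL were 1.01, 1.48 and 0.484, so that they fell on both sides of 1, and the mean log2 fold change was -0.16 ± 0.82 (SD, n = 3).

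CTSK also lay above 1 throughout in MDA-MB-231, with fold changes of 1.32, 1.20 and 1.52 and a mean log2 fold change of 0.43 ± 0.17 (SD, n = 3). Its 3 comparisons lay closer together than those of CTSL, CST7 or HPSE in this line. In MDA-MB-468 the fold changes of CTSK were 0.917, 0.943 and 0.389, all below 1, with a mean log2 fold change of -0.53 ± 0.73 (SD, n = 3). The first 2 of these were close to 1, and without the comparison with control 4 the mean was -0.11. Lying above 1 in all 3 comparisons was common among the target genes of MDA-MB-231 (42.9%), and lying below 1 in all 3 was found for 22.6% of them in MDA-MB-468.

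CST7 had fold changes of 1.02, 0.784 and 1.12 in MDA-MB-231 and of 0.943, 1.22 and 0.530 in MDA-MB-468. The inhibitor was thus on both sides of 1 in both lines, and its lowest value was again that with control 4 of MDA-MB-468. Its mean log2 fold changes were -0.05 ± 0.27 and -0.24 ± 0.62 (SD, n = 3 each).

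HPSE was the least reproducible of the 4 genes in MDA-MB-231. Its fold changes there were 0.619, 1.38 and 1.13, which gave a mean log2 fold change of -0.02 ± 0.60 (SD, n = 3), against a median SD of 0.34 over the 84 target genes of this line. In MDA-MB-468 they were 1.00, 1.05 and 0.405, with a mean of -0.41 ± 0.77 (SD, n = 3) beside a median SD of 0.70. With controls 2 and 3 of MDA-MB-468 the heparanase ratio was thus near 1, and the low mean came from the comparison with control 4.

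The comparison of MDA-MB-468 with control 4 stood apart over the whole plate. Its median log2 fold change over the 84 target genes was -0.92, whereas the medians of the other 5 comparisons lay between -0.04 and 0.39. The positive PCR control wells, which carry an artificial DNA template with its own assay, were at -1.42 to -1.05 in that comparison and at 0.95 to 1.06 with control 2 of the same line. The 3 reverse transcription control wells shared 1 identical value in each of the 6 comparisons, which was -0.27 with control 4 of MDA-MB-468. With controls 2 and 4 of MDA-MB-231 CDKN2A had that same value (0.25 and 0.78). With control 3 (0.46 against 1.30 for CDKN2A) and in MDA-MB-468 it did not. Whether these wells were measured or held at a set value was not tested. The genomic DNA control well had fold changes above 1 in all 6 comparisons, from 1.71 to 2.04 in MDA-MB-231 and from 1.86 to 2.75 in MDA-MB-468, and its part in the values of the 4 genes was not tested. The 4 genes were at -1.36 (CTSK), -1.05 (CTSL), -0.92 (CST7) and -1.30 (HPSE). Without this comparison the mean log2 fold changes in MDA-MB-468 were -0.11 for CTSK, 0.29 for CTSL, 0.10 for CST7 and 0.03 for HPSE, so that all but CTSK turned to above 0. Set against the target median of that comparison, CTSK was at -0.44, CTSL at -0.13, CST7 at 0.01 and HPSE at -0.38. Set against the positive PCR control wells instead, control 2 gave the lowest value of MDA-MB-468 for each gene, at -1.14 for CTSK, -1.10 for CST7, -1.01 for HPSE and close to that of HPSE for CTSL.

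No p-value can be attached to the comparisons without assuming that they are independent. Under that assumption limma, fitted to the log2 fold changes of all 84 target genes of a line, gave CTSL in MDA-MB-231 an adjusted p of 0.0335 (95% interval of the log2 fold change 0.20 to 1.09). CTSK in MDA-MB-231 had an adjusted p of 0.0927 in the same limma fit (0.03 to 0.82), CST7 of 0.905 (-0.48 to 0.37) and HPSE of 0.977 (-0.63 to 0.59). Of the 84 target genes, 38.1% passed an adjusted p of 0.05 in that fit. In MDA-MB-468 the adjusted p was 0.410 for CTSK (-1.39 to 0.34), 0.840 for CTSL, 0.764 for CST7 and 0.554 for HPSE by limma, where 31% of the target genes passed. These intervals are wide enough to hold a change of 2-fold downward for each of the 4 genes in MDA-MB-468. With controls 2 and 3 alone, whose CM samples carry different numbers, none of the 4 genes passed in either line, with adjustment or at an unadjusted p of 0.05, and CTSL in MDA-MB-231 had an adjusted p of 0.139 by limma, while 39.3% of the target genes passed in that line and 50% in MDA-MB-468.

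**Figure D2:**
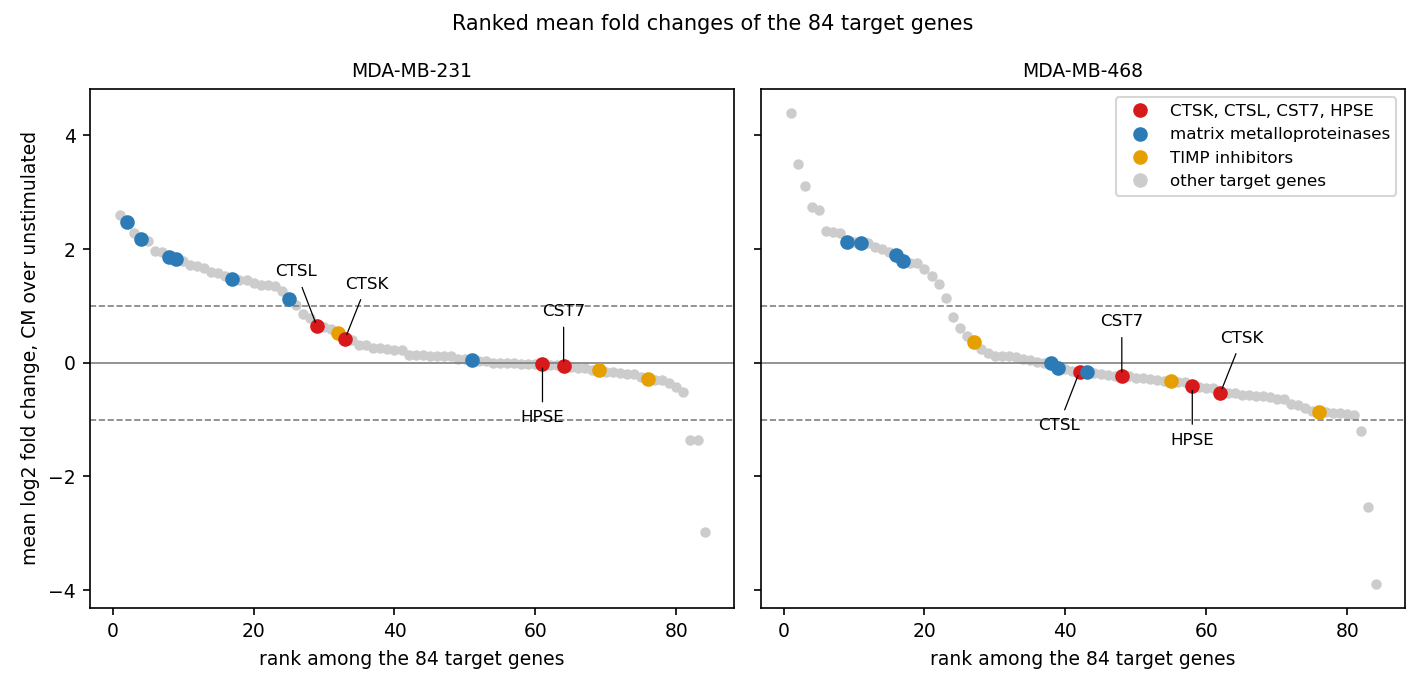
Mean log2 fold change (CM over unstimulated, mean of 3 comparisons) of the 84 target genes of each line, ranked from highest to lowest, with CTSK, CTSL, CST7 and HPSE in red, the 7 matrix metalloproteinases in blue and the 3 TIMP genes in orange. Dashed lines mark 2-fold. The cathepsins, cystatin F and heparanase lie between the dashed lines in both lines of cells, and all 4 lie below 6 of the 7 metalloproteinases in each.

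The other proteolysis genes of the plate are given for comparison, as counts and medians. Of the 7 matrix metalloproteinases, secreted zinc proteases that degrade collagens and other matrix proteins, 6 were raised in the MDA-MB-231 cells and 4 in the MDA-MB-468 cells, with median log2 fold changes of 1.83 and 1.80, beside medians of 0.20 and -0.32 for the 4 genes described here and of 0.13 and -0.16 for all 84 target genes. The gelatinase MMP9 had fold changes of 3.81, 4.56 and 5.34 in MDA-MB-231 and of 5.00, 6.12 and 2.75 in MDA-MB-468. Its lowest value was above the highest value of any of the 4 genes in either line. MMP11 (stromelysin-3) was the metalloproteinase that was not raised in either line, with geometric means of 1.03 and 0.890. Neither line had a TIMP gene, an inhibitor of metalloproteinases, past the threshold (0 of 3). TIMP2 had geometric means of 0.825 and 0.797, TIMP3 of 0.917 and 0.552 and TIMP4 of 1.44 and 1.29, so that the TIMP genes lay on both sides of the 0.963 and 0.849 of the cysteine protease inhibitor CST7. PLAUR, the urokinase receptor, was not past the threshold in either line (geometric means of 1.09 and 1.08).

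Heparan sulfate binds many growth factors and chemokines, which heparanase can set free. The 4 genes listed as such, HGF, VEGFA, CXCL12 and CCL7, were all raised in both lines, with median log2 fold changes of 1.73 in the MDA-MB-231 cells and 2.48 in MDA-MB-468. HGF (hepatocyte growth factor) had fold changes of 4.21, 2.94 and 3.29 in MDA-MB-231 and of 21.4, 18.2 and 3.71 in MDA-MB-468, where those of HPSE were 0.619, 1.38 and 1.13, and 1.00, 1.05 and 0.405. Of the matrix and surface substrates, COL4A2 (a basement membrane collagen chain), CD44 (the hyaluronan receptor) and CDH1 were not past the threshold in either line. FN1 (fibronectin) was raised in MDA-MB-468, with a geometric mean of 2.61, and was at 0.897 in MDA-MB-231. The difference of FN1 between the lines was not tested.

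Macrophages express CTSK, CTSL and CST7 themselves. Of 9 other genes of the plate that macrophages express (IL1B, IL18, CCL7, SYK, MMP9, PLAUR, CD82, CXCR4 and TGFB1), 4 were raised and none lowered in MDA-MB-231, with mean log2 fold changes from -0.30 to 2.61, and 3 were raised and 1 lowered in MDA-MB-468, from -1.21 to 2.13. These counts stand beside the 31% and 27.4% of all target genes that were raised. IL1B, an inflammatory cytokine of macrophages, was raised in both lines (geometric means of 6.09 and 2.87), whereas SYK, a kinase of immune receptors, was raised in MDA-MB-231 (2.87) and at 0.545 in MDA-MB-468. The cytokine IL18 was at 0.811 in MDA-MB-231, and the tetraspanin CD82 was lowered in MDA-MB-468 (0.433), where the chemokine receptor CXCR4 was at 0.740. The part of macrophage RNA in the values of the cathepsins and cystatin F was not tested.

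Among the 4 genes, the difference between the lines was largest for CTSK, at 0.95 ± 0.75 on the log2 scale (MDA-MB-231 minus MDA-MB-468, SD of the difference). All 3 comparisons of MDA-MB-231 lay above all 3 of MDA-MB-468. The differences were 0.80 ± 0.88 for CTSL, 0.18 ± 0.67 for CST7 and 0.39 ± 0.98 for HPSE, and the comparisons of the lines overlapped for these 3 genes. For CTSL they were apart, with MDA-MB-231 higher, under 1 of the 5 housekeeping references and relative to the median of the target genes. Without control 4 of MDA-MB-468 the differences were 0.53 for CTSK, 0.35 for CTSL, -0.16 for CST7 and -0.05 for HPSE, so that those of CTSK and CTSL shrank by more than 1.5 times and those of CST7 and HPSE changed sign. Separation in that direction was found for 15.5% of the 84 target genes, in the opposite direction for 8.33% and in either for 23.8%. An exact test of 3 comparisons against 3 cannot give a p below 0.1. The line term of limma on all 6 comparisons, taken as independent, gave adjusted p-values of 0.228 for CTSK, 0.345 for CTSL, 0.807 for CST7 and 0.685 for HPSE, with 11.9% of the target genes past 0.05. The 95% interval of the CTSK difference ran from -0.02 to 1.92 on the log2 scale.

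Since the lines were set to different reference genes, the 4 genes were also compared with each other within each comparison, where the reference cancels. CTSK had a lower fold change than CTSL in all 6 comparisons, with a log2 difference (CTSK minus CTSL) of -0.25, -0.06 and -0.34 in MDA-MB-231 and of -0.14, -0.66 and -0.32 in MDA-MB-468. The same order in all 6 comparisons was found for 48.5% of the 3486 pairs of target genes. The difference between CTSK and CST7, an inhibitor of its class, was 0.38, 0.62 and 0.44 in the MDA-MB-231 comparisons and -0.04, -0.38 and -0.45 in MDA-MB-468. The fold change of the protease was therefore above that of the inhibitor throughout in MDA-MB-231 and below it throughout in MDA-MB-468. Such an opposite order was found for 6.68% of the pairs of target genes. CTSL minus CST7 was 0.63, 0.67 and 0.78 in MDA-MB-231 and 0.10, 0.28 and -0.13 in MDA-MB-468, without overlap between the lines. The other 4 of the 6 pairs overlapped between the lines, and absence of overlap was common, being found for 47.8% of all pairs of target genes.

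**Figure D3:**
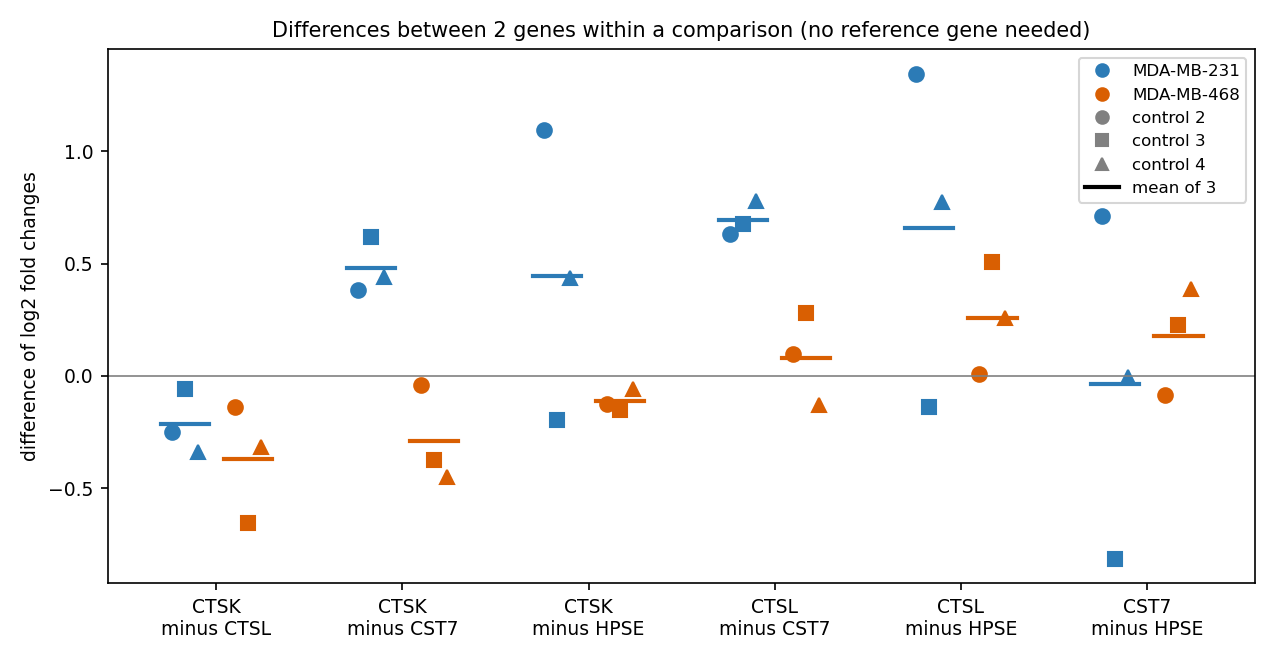
Difference of the log2 fold changes of 2 genes in the same comparison, for the 6 pairs of CTSK, CTSL, CST7 and HPSE, in MDA-MB-231 (blue) and MDA-MB-468 (orange), with symbols for the control of the comparison and bars for the mean of 3. CTSK minus CST7 is above 0 in all 3 comparisons of MDA-MB-231 (0.38 to 0.62) and below 0 in all 3 of MDA-MB-468 (-0.45 to -0.04), and CTSK minus CTSL is below 0 in all 6.

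Against the median of the 84 target genes of the same comparison, CTSL stood at 0.29, 0.36 and 0.55 in MDA-MB-231, above its -0.16, 0.22 and -0.13 in MDA-MB-468. CTSK stood in MDA-MB-231 at 0.04, 0.30 and 0.22. CST7 lay below that median in each of the 3 comparisons of MDA-MB-231, at -0.35, -0.31 and -0.22, while its fold changes against ACTB lay on both sides of 1. In MDA-MB-468 CTSK lay below the median in each comparison (-0.29, -0.44 and -0.44), as did HPSE (-0.17, -0.29 and -0.38). On this scale the comparison with control 4 of MDA-MB-468 lay close to the others for all 4 genes. Lying above the median in each comparison was found for 35.7% of the target genes in either line, and below it for 34.5%.

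**Figure D4:**
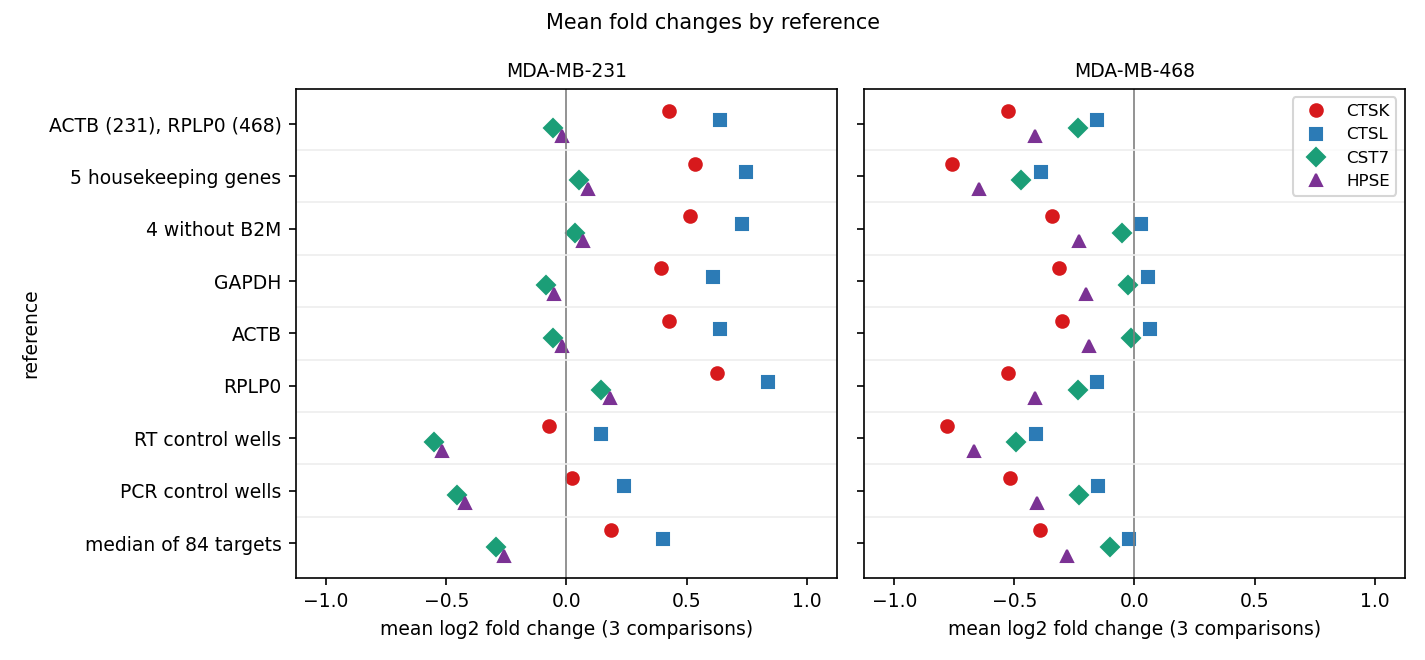
Mean log2 fold change (3 comparisons) of CTSK, CTSL, CST7 and HPSE in each line by reference, from the main one at the top, which recurs as ACTB in MDA-MB-231 and as RPLP0 in MDA-MB-468, to the median of the 84 target genes at the bottom. CTSL in MDA-MB-231 stays above 0 under all references shown (0.14 to 0.84), and CTSK in MDA-MB-468 stays below 0 (-0.78 to -0.30). The 0.14 and the -0.78 are relative to the reverse transcription control wells, which share 1 identical value in each comparison.

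By construction, a change of reference shifts the means of all genes of a line by the same amount. In MDA-MB-231 the mean log2 fold change of CTSL lay between 0.61 and 0.84 and that of CTSK between 0.39 and 0.63 under the mean of 5 or of 4 housekeeping genes and under GAPDH, ACTB or RPLP0 alone. Relative to the reverse transcription control wells they were lower, at 0.14 and -0.07, and CST7 and HPSE were at -0.55 and -0.52. These control wells shared 1 identical value in each comparison, and whether that value was measured was not tested. In MDA-MB-468 CTSK lay between -0.76 and -0.30 and HPSE between -0.65 and -0.19 under the 5 housekeeping references, whereas CTSL lay between -0.39 and 0.07 and so changed sign.

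The 3 target genes most like each gene over the 6 comparisons were found by the root mean square difference of the log2 fold changes. For CTSK they were CHD4 (0.23), CXCR4 (0.27) and RPSA (0.28), against a median difference of 0.63 over the 83 other target genes. For CTSL they included RPSA (0.34) and CTSK (0.35), beside a median of 0.74. For CST7 they were CD44 (0.16), SMAD2 (0.18) and MMP11 (0.20), and for HPSE they were FGFR4 (0.30), EPHB2 (0.31) and CTNNA1 (0.33), beside medians of 0.56 and 0.69. The plate-wide shift with control 4 of MDA-MB-468 is shared by these genes and enters the likeness.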

How the data were processed

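RNA was measured with RT2 Profiler Tumor Metastasis PCR arrays, with 96 wells for 84 target genes, 5 housekeeping genes and 7 control wells. The deposited values are linear fold changes (the ratio of CM to unstimulated by the ΔΔCt method) that the authors made with GeneGlobe. They are scaled so that the housekeeping genes have a geometric mean of 1 per comparison. The GeneGlobe setting for undetected wells is not given in the sources used here. Well symbols came from the study's table, whose values were not used. The 16 columns of threshold cycles were not used, because their names match no sample label, so abundance and depth are unknown and the number of comparisons limits the precision. The unnumbered columns differed from the mean of the 3 comparisons by at most 0.000188 (log2).

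Fold changes were divided by ACTB (MDA-MB-231) or RPLP0 (MDA-MB-468), the genes set to 1 in the study's table. The fold rule was used because the independence of the comparisons is not settled. limma 3.58.1 (R 4.3.3, Benjamini-Hochberg over 84 genes) on the log2 fold changes was added after seeing the data and assumes independence. The planned limma fit on threshold cycles was not run. Alternatives were 6 other references, a fold of 1.5, leaving out each comparison and, added later, the median of the target genes and the positive PCR control wells as references. The fold rule and the limma fit were also run on simulated data with independent comparisons. The simulation held no shared sample and no plate-wide shift, so it does not cover those cases. The 4 genes and the gene lists were chosen with earlier results of these data known. Named genes are the 4 genes, the fixed lists and, for each gene, the 3 nearest target genes. Some of these are not reported here. Tables and figures were made in Python 3.11.15 (pandas 2.3.3, numpy 2.4.6, matplotlib 3.10.9).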

Additional observations from a re-analysis of the deposited data

Results flagged for a closer look

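CTSK had fold changes above 1 throughout in MDA-MB-231 and below 1 throughout in MDA-MB-468, a difference of 0.95 on the log2 scale. Such opposite directions were found for 3 of the 84 target genes (3.57%). The line term of limma for CTSK, with the comparisons taken as independent, had an adjusted p of 0.228. The difference was 0.53 without control 4 of MDA-MB-468, and 0.44 with controls 2 and 3 alone in both lines, where the adjusted p of limma was 0.269. The directions were opposite in all comparisons under 2 of the 5 other housekeeping references. The lines were without overlap under 4 of these 5 and under the median of the target genes, but overlapped under the positive PCR control wells. The lines were also without overlap under the reverse transcription control wells, which shared 1 identical value in each comparison.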

How the results depend on the processing

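None of the 4 genes passed the fold rule under any of the 7 other references per line or with any comparison left out. With a fold of 1.5, CTSL in MDA-MB-231 passed, with 30 target genes raised in place of 26. With that fold and, added after seeing the data, other references, CTSL passed under each housekeeping reference but not under the reverse transcription or PCR control wells or the target median, CTSK in MDA-MB-231 passed with RPLP0, and CTSK and HPSE in MDA-MB-468 were lowered with the average of 5 housekeeping genes and with the reverse transcription control wells. That average includes B2M, whose fold change was 3.10 to 4.65 in MDA-MB-468, and without B2M neither was lowered. In MDA-MB-231, CTSK was 0.63 with RPLP0, 0.19 with the target median and 0.43 with ACTB (log2). With the reverse transcription and PCR control wells, CTSK was -0.073 and 0.025, CTSL 0.14 and 0.24 and CST7 -0.55 and -0.46. The PCR control wells (artificial template) do not correct for RNA input. Other causes were not tested. Target genes without overlap between the lines numbered 20, but 14 with GAPDH, 33 when all 5 housekeeping genes were averaged, 35 with the median of the target genes, and 22 to 39 with each comparison left out, where fewer values have to separate (32 without control 3 of MDA-MB-231, 39 without control 4 of MDA-MB-468). The lowest and highest means with a comparison left out were 0.33 and 0.51 for CTSK, 0.49 and 0.80 for CTSL, -0.16 and 0.09 for CST7 and -0.26 and 0.32 for HPSE in MDA-MB-231. In the other line they were -0.74 and -0.11 for CTSK, -0.52 and 0.29 for CTSL, -0.50 and 0.10 for CST7 and -0.65 and 0.03 for HPSE. Genes raised in MDA-MB-231 numbered 16 with the reverse transcription control wells. Genes lowered in MDA-MB-468 numbered 3, but 11 under that average, 12 with the reverse transcription control wells and 9 and 10 without controls 2 and 3. With the control number as a replicate block, the differences between the lines kept their means and had adjusted p-values of 0.406 for CTSK (mean 0.95, with 0.53, 0.35 and 1.97 for controls 2, 3 and 4), 0.507 for CTSL (0.80), 0.85 for CST7 (0.18) and 0.79 for HPSE (0.39) by limma, with 8 target genes passing in place of 10. Same-number comparisons did not deviate together (correlations -0.30, -0.06 and -0.23, 84 target genes), but 3 per line cannot exclude a shared run. This block was added after seeing the data. No paired analysis was possible within a line because each deposited value already divides a CM sample by a control, and single-sample cycles were not used, so neither the planned block nor a planned re-analysis ceiling of 35 cycles was run.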
